A study of Homo sapiens with 6 samples.

Results

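D-type cyclins, their kinase partners CDK4 and CDK6, the retinoblastoma gene RB1 and the inhibitors of these kinases were examined in PC-9 cells with and without RBM10 knockdown (KD). Members were the 10 genes CCND1, CCND2, CCND3, CDK4, CDK6, RB1, CDKN1B, CDKN1C, CDKN2A and CDKN2B, taken by gene symbol out of 26334 gene symbols quantified in the deposited files. They were represented by 22 of 51398 isoforms. The list was chosen with earlier results of these data known. PC-9 cells derive from a human lung adenocarcinoma whose EGFR carries an activating mutation, and the cells here were grown without drug treatment. The conditions were shScr, a scrambled shRNA that served as control, and the RBM10 shRNAs shRBM10#1 and shRBM10#2, with 2 RNA-Seq libraries for each and 6 in all. RBM10 encodes an RNA-binding protein that regulates alternative splicing. Parental PC-9 cells are given as control in the methods of the study, but the sample labels say shScr, the name used here. RNA was total RNA of cells in RPMI medium with serum, and whether a knockdown line was a pool or a clone is not given for these samples in the sources used here. Nothing in the sources used here says that the 2 libraries of a condition came from separate cultures, so p-values measure the spread between these libraries, which may be technical.

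D-type cyclins (CCND1, CCND2 and CCND3) bind CDK4 or CDK6 in the G1 phase of the cell cycle, and the active kinase phosphorylates the RB1 protein, which releases E2F transcription factors and permits the start of DNA replication. The INK4 inhibitors p16 (from CDKN2A) and p15 (from CDKN2B) bind CDK4 and CDK6 and keep them from the cyclins, whereas the CIP/KIP inhibitors p27 (CDKN1B) and p57 (CDKN1C) bind assembled cyclin-CDK complexes. CDKN2A also encodes ARF, a protein read in another frame that protects p53 from MDM2. In lung adenocarcinoma, CDKN2A is often deleted, and CDK4, CDK6 and CCND1 can be amplified.

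CDKN2A is the member with the most divergent isoforms, since its p16 isoform (NM_000077) and its ARF isoform (NM_058195) code for unrelated proteins. It lies on the minus strand of chromosome 9 between 21967753 and 21995301 (GRCh38, GENCODE 29). These isoforms begin with different first exons and then share exon 2, which is translated in different frames, and exon 3. Reads that lie within exon 2 or exon 3 match both isoforms and were divided between them by the quantification. NM_058195 was matched to its GENCODE transcript by exon structure, because the table that pairs GENCODE with RefSeq identifiers held 19 of the 22 member isoforms and not this one.

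Libraries held between 31953729 and 37557507 expected counts. By the effective lengths, fragments averaged 231.2 nt for shScr replicate 2 against 264.9 to 281.2 nt elsewhere, which changes the TPM of short transcripts relative to long ones in that library. The main tests used counts with no offset for length, so a difference of this kind can enter them as well. RBM10 itself gave 83.2 and 86.1 CPM (read counts scaled to a common library size by the TMM method) in shScr, 59.8 and 56.4 CPM under shRBM10#1, and 27.2 and 26.9 CPM under shRBM10#2, so that every KD library lay below both shScr libraries. Against shScr, RBM10 had a log2 fold change (FC) of −0.54 under shRBM10#1 (SE 0.067, FDR = 2.28e-04) and of −1.65 under shRBM10#2 (SE 0.0701, FDR = 5.1e-08). Each FDR of a gene total given here comes from the quasi-likelihood test of edgeR, adjusted by the Benjamini-Hochberg method over 14217 genes. Each of 5 epithelial markers was expressed, with a summed level of 22408 and 24161 TPM in shScr, 25627 and 23534 TPM under shRBM10#1, and 20195 and 21032 TPM under shRBM10#2. The summed level of 8 markers of leukocytes, endothelium and fibroblasts was 3.6 to 4.55 TPM, and the leukocyte marker PTPRC reached at most 0.05 TPM. Of these 13 markers, 8 could be tested: the keratin gene KRT19 and the endothelial gene PECAM1 rose with shRBM10#1, and EPCAM rose while KRT19, VWF and COL1A1 fell with shRBM10#2. That is 2 of 8 with shRBM10#1 and 4 of 8 with shRBM10#2, beside 14% and 25.9% of all genes tested. The part of these markers in the results on the members was not tested. Fewer cells of a type and less RNA per cell cannot be told apart in bulk RNA.

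TPM values, which divide counts by transcript length, put the members in an order that was led by CDKN2A and ended with CCND2. CDKN2A was highest, with a mean of 590.8 TPM over the 6 libraries (range 518 to 668), above 99.1% of all genes. CCND1 followed with 204 TPM (173 to 256) and CDK4 with 148 TPM (140 to 151), and these ranges did not overlap. CCND3 had a mean of 95.7 TPM (81.9 to 112) and CDKN1B of 83.5 TPM (80.3 to 86.3), with overlapping ranges. CDKN2B lay alone at 36.2 TPM (32.5 to 40.0). RB1 with 17.3 TPM (14.6 to 20.1) and CDK6 with 15.7 TPM (13.7 to 19.1) overlapped. CDKN1C was near the floor with 0.75 TPM (0.62 to 1.01), and CCND2 had a mean of 0.01 TPM. The CDK4 level was thus above that of CDK6 in every library, and p16/ARF and cyclin D1 transcripts were the most abundant of the inhibitors and cyclins.

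**Figure D1:**
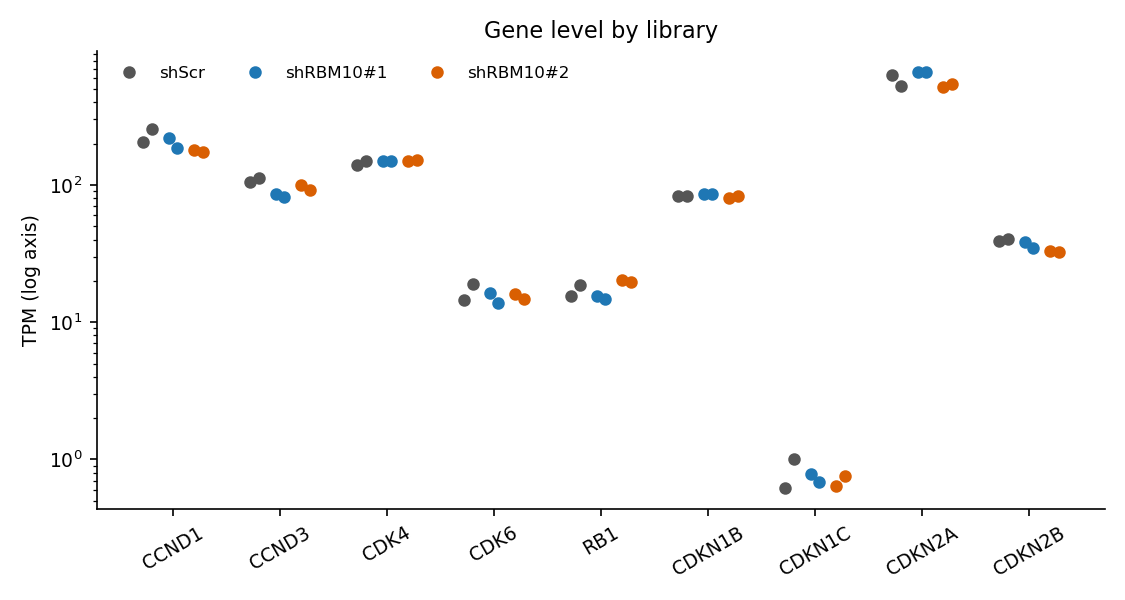
TPM (log axis) of 9 member genes, with 1 point per library and color by condition. CCND2 is left out because it was at 0 in 3 libraries. CDKN2A lies between 518 and 668 TPM, whereas CDKN1C lies near 1 TPM or below.

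With shRBM10#1, 1 of the 9 members tested changed relative to shScr: CCND3 fell, and no member rose. Of all genes tested, 14% passed the same threshold. With shRBM10#2, 3 of 9 members changed: CCND1 and CDKN2B fell and RB1 rose, against 25.9% of all genes. The shRNAs themselves were compared next, because they reduced RBM10 to different levels: relative to shRBM10#1, CCND1 and CDKN2A fell and RB1 rose with shRBM10#2, again 3 of 9 members, against 25.5% of all genes. The share of members called was thus near that of all genes in these comparisons. The members called with shRBM10#2 were not the same without shScr replicate 2, the library with shorter fragments. Its removal, which leaves 1 shScr library, moved the log2 FC of CDKN2A with shRBM10#2 from −0.096 to −0.29. In the main fit, no member passed with both shRNAs relative to shScr. The share of all genes that passed with both was not counted, so this has no background here. The comparisons of each shRNA with shScr share the shScr libraries. No member changed by a log2 FC above 1 in either direction, a criterion that the study set for isoforms and that was applied here to gene totals, where it was met, together with the FDR, by 1.88%, 1.3% and 1.19% of genes in these comparisons. The median log2 FC of the 9 members was −0.028 with shRBM10#1, −0.096 with shRBM10#2 and −0.11 between the shRNAs, beside 0.0079, 0.0054 and 0.0068 for all genes tested.

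**Figure D2:**
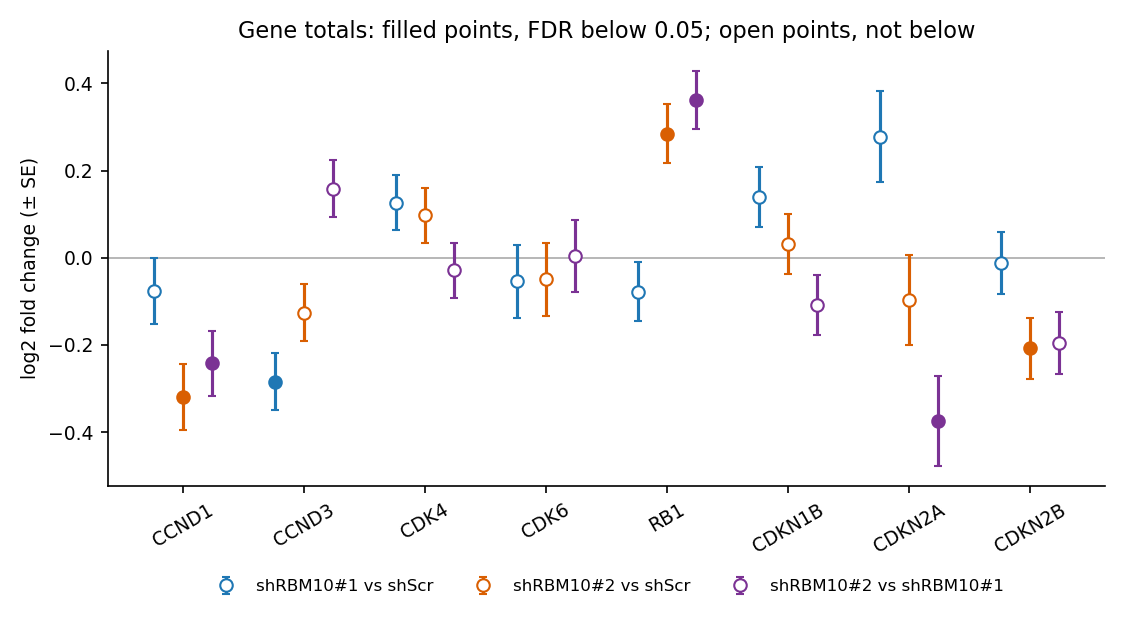
log2 FC of gene totals (points) with SE (bars) for 8 members in 3 comparisons, from edgeR. Filled points have an FDR below 0.05. CDKN1C, with an SE of 0.35, and the untested CCND2 are left out. All log2 FC shown lie between −0.37 and 0.36.

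With the 4 KD libraries as one group against shScr, the spread between the shRNAs enters the error, and RBM10 itself had a log2 FC of −0.99 (SE 0.306, FDR = 0.146 by edgeR). In this fit, 0 of 9 members passed, beside 1.62% of all genes. CCND3 alone had an unadjusted p below 0.05 (log2 FC −0.20, SE 0.0868, FDR = 0.274 by edgeR), and DESeq2 also called 0. The log2 FC of the other members in this comparison lay between −0.19 (CCND1, FDR = 0.384 by edgeR) and 0.12 (RB1, FDR = 0.690 by edgeR). Taking the mean of the coefficients of both shRNAs in place of a single group gave 1 call, CCND3 (log2 FC −0.21, SE 0.0564, FDR = 0.0245 by edgeR).

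Among the D-type cyclins, CCND1 was the most abundant. CCND1 encodes cyclin D1, and the gene lies on the plus strand of chromosome 11 between 69641087 and 69654474 (GRCh38). It gave 579 and 629 CPM in shScr, 611 and 535 CPM under shRBM10#1, and 493 and 475 CPM under shRBM10#2. Both shRBM10#2 libraries lay below the other 4, whereas the shRBM10#1 and shScr libraries overlapped. CCND1 fell by 19.8% with shRBM10#2 relative to shScr (log2 FC −0.32, SE 0.0754, FDR = 0.00907 by edgeR) and by 15.5% relative to shRBM10#1 (log2 FC −0.24, SE 0.0753, FDR = 0.0326). With shRBM10#1 the log2 FC was −0.076 (SE 0.0753, FDR = 0.549). The calls were lost in some fits without 1 library, each of which leaves 1 library in its condition. Over all alternatives, the log2 FC lay between −0.377 and −0.259 relative to shScr and between −0.336 and −0.146 relative to shRBM10#1. Relative to shScr, the FDR was 0.0661 without shScr replicate 2, 0.0688 without shRBM10#2 replicate 1 and 0.128 without shRBM10#2 replicate 2, and relative to shRBM10#1 it was 0.142 and 0.267 without those shRBM10#2 libraries and 0.161, with a log2 FC of −0.15, without shRBM10#1 replicate 1 (edgeR). An offset for effective length gave an FDR of 0.0549 relative to shRBM10#1.

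The files held a single CCND1 isoform, NM_053056, so all its reads stood under cyclin D1. In GENCODE 29, CCND1 shares 497 nt of exon with LTO1 (named ORAOV1 in the files) on the opposite strand, and whether reads kept the strand is not given in the sources used here. ORAOV1 also fell with shRBM10#2 (log2 FC −0.25, SE 0.0808, FDR = 0.0380 by edgeR), at 29.04 and 26.6 CPM in shScr and 24.2 and 22.6 CPM with shRBM10#2. Its level was thus far under that of CCND1, and its part in the CCND1 result was not tested.

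CCND2, which encodes cyclin D2 and lies on chromosome 12 from 4273772 to 4305350, was close to undetected. Both shScr libraries had 0 expected counts, the shRBM10#1 libraries had 1 each, and the shRBM10#2 libraries had 0 and 6. It did not pass the filter on low counts and was not tested. A count of 0 allows up to 3 counts by counting error alone, or 0.0828 to 0.0914 CPM before TMM scaling in the libraries with 0.

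CCND3, which encodes cyclin D3 and lies on the minus strand of chromosome 6 between 41934933 and 42050357, gave 132 and 124 CPM in shScr, 105.4 and 105.0 CPM under shRBM10#1, and 122 and 113 CPM under shRBM10#2. All 4 KD libraries lay below both shScr libraries, and the shRBM10#1 libraries were lowest. CCND3 fell by 17.9% with shRBM10#1 (log2 FC −0.28, SE 0.0658, FDR = 0.0123 by edgeR), although without shScr replicate 1 the FDR was 0.0745 (log2 FC −0.24). With shRBM10#2, where RBM10 was lower, the log2 FC was −0.13 (SE 0.0654, FDR = 0.178), and the difference between the shRNAs was not called (log2 FC 0.16, SE 0.0657, FDR = 0.0959).

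The files listed 6 isoforms of CCND3, of which NM_001760, the main isoform, made up 90.2% and 89.8% of the gene's TPM in shScr, 87.3% and 88.5% with shRBM10#1, and 89.3% and 89.2% with shRBM10#2. Its log2 FC was −0.32 with shRBM10#1 (SE 0.0613, unadjusted p = 0.00285, FDR = 0.120 by edgeR over 26464 isoforms). NM_001136126, which begins at a distant upstream exon and codes for a shorter protein, held 3.65% to 5.13% of the gene, with a log2 FC of −0.48 (SE 0.173, FDR = 0.304) and −0.54 (SE 0.173, FDR = 0.162) with shRBM10#1 and shRBM10#2. NM_001136017 held 2.48% to 5.49%, NM_001136125 held 1.52% to 3.91% and NM_001287427 held 0.24% to 0.64%, and NM_001287434 did not exceed 0.07% in any library. The division of reads among CCND3 isoforms thus differed little between libraries.

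CDK4 and CDK6, the kinases, did not pass in any comparison. CDK4, on the minus strand of chromosome 12 between 57747727 and 57756013, gave 170 and 161 CPM in shScr, 177 and 184 CPM under shRBM10#1, and 175 and 179 CPM under shRBM10#2. In CPM, every KD library lay above both shScr libraries, by a small margin: the log2 FC was 0.13 (SE 0.0627, FDR = 0.208) with shRBM10#1 and 0.097 (SE 0.0627, FDR = 0.279) with shRBM10#2 (edgeR). In TPM the conditions overlapped: shScr replicate 2, at 150.3 TPM, lay above both shRBM10#1 libraries and above shRBM10#2 replicate 1. How many of all genes separate in this way was not counted. CDK4 shares 1369 nt of exon with TSPAN31 on the opposite strand, the largest such overlap among the members. TSPAN31, a tetraspanin gene, gave 18.9 and 17.98 CPM in shScr, 18.5 and 27.0 CPM under shRBM10#1, and 15.6 and 15.9 CPM under shRBM10#2, and it was lower with shRBM10#2 than with shRBM10#1 (log2 FC −0.54, SE 0.138, FDR = 0.0136 by edgeR). Its level was far below that of CDK4, and reads of this pair cannot be told apart where they overlap if strand was not kept.

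CDK6, on the minus strand of chromosome 7 between 92604921 and 92836594, gave 116 and 132 CPM in shScr, 128 and 112 CPM under shRBM10#1, and 124 and 115 CPM under shRBM10#2. The conditions overlapped, and the log2 FC was −0.054 (SE 0.0833, FDR = 0.716) with shRBM10#1 and −0.050 (SE 0.0831, FDR = 0.701) with shRBM10#2 (edgeR). In GENCODE 29, its pair of isoforms differ in a noncoding first exon, of 117 nt at chr7:92836478-92836594 in NM_001145306 and of 45 nt at chr7:92833873-92833917 in NM_001259, and share each coding exon. The GENCODE model of NM_001145306 also has a last exon of 147 nt against 10366 nt in NM_001259, whereas the deposited files gave the isoforms lengths of 11717 and 11612 nt, so that the short last exon was not the model quantified. NM_001145306 made up 64.5% and 74.6% of the gene's TPM in shScr, 68.1% and 83.1% with shRBM10#1, and 58.9% and 35.0% with shRBM10#2. Both shRBM10#2 libraries were lowest, yet the higher of them lay closer to the lowest shScr library than to its own replicate. Neither isoform passed: NM_001259 had a log2 FC of 0.76 (SE 0.388, FDR = 0.340) with shRBM10#2 relative to shScr and of 1.09 (SE 0.392, FDR = 0.207) relative to shRBM10#1, and NM_001145306 had −0.60 (SE 0.294, FDR = 0.316) and −0.65 (SE 0.294, FDR = 0.300) (edgeR).

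**Figure D3:**
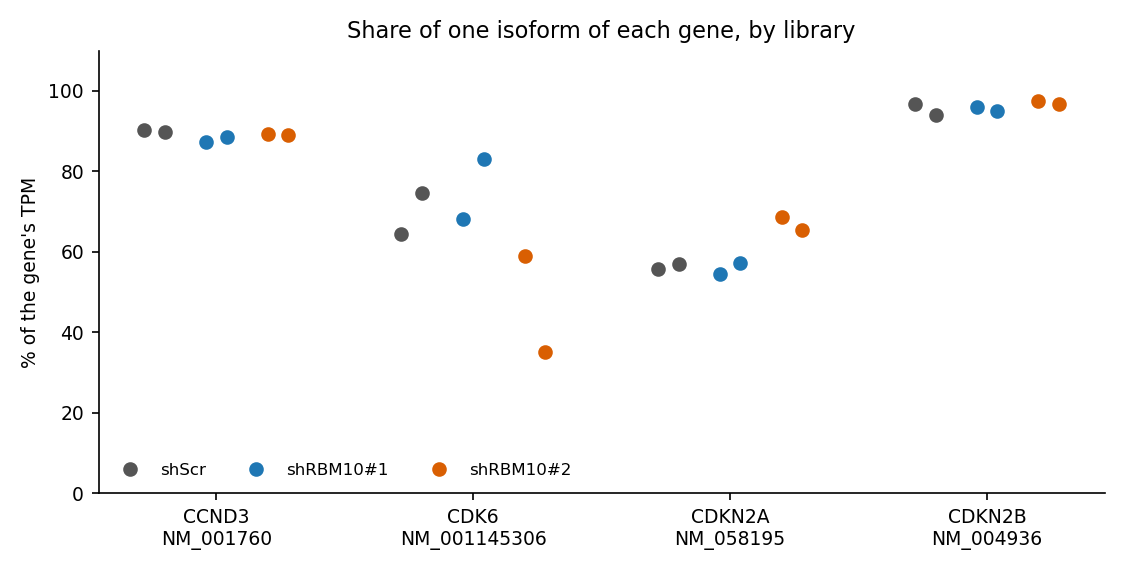
Percent of the gene's TPM given by the named isoform of each of 4 members, with 1 point per library and color by condition. The CCND3 and CDKN2B isoforms stay between 87% and 98% of their genes, the CDK6 isoform ranges from 35.0% to 83.1%, and the ARF isoform of CDKN2A is higher in both shRBM10#2 libraries than in the other 4.

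RB1, the substrate of CDK4 and CDK6, lies on the plus strand of chromosome 13 between 48303726 and 48599436. It gave 48.7 and 51.5 CPM in shScr, 48.0 and 46.9 CPM under shRBM10#1, and 61.8 and 60.2 CPM under shRBM10#2. Both shRBM10#2 libraries lay above the other 4, and the shRBM10#1 libraries lay just below shScr in CPM but overlapped with it in TPM. RB1 rose by 21.8% with shRBM10#2 relative to shScr (log2 FC 0.28, SE 0.0676, FDR = 0.00936 by edgeR) and by 28.5% relative to shRBM10#1 (log2 FC 0.36, SE 0.0676, FDR = 0.00263), whereas with shRBM10#1 the log2 FC was −0.078 (SE 0.0684, FDR = 0.495). Relative to shScr, the FDR was 0.0607 without shScr replicate 1, 0.116 without shRBM10#2 replicate 1 and 0.0812 without shRBM10#2 replicate 2, and relative to shRBM10#1 it was 0.0520 without shRBM10#2 replicate 1 (edgeR). The only RB1 isoform in the files, NM_000321, was the 1 member isoform that passed in the main edgeR fit of isoforms (log2 FC 0.37 with shRBM10#2 relative to shRBM10#1, SE 0.0553, FDR = 0.0477 by edgeR).

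The CIP/KIP inhibitors among the members did not pass in any comparison. CDKN1B, which encodes p27 and lies on the plus strand of chromosome 12 between 12715058 and 12722371, gave 130 and 116 CPM in shScr, 134 and 137 CPM under shRBM10#1, and 123 and 128 CPM under shRBM10#2. The log2 FC was 0.14 (SE 0.0695, FDR = 0.212) with shRBM10#1 and 0.031 (SE 0.0695, FDR = 0.781) with shRBM10#2 (edgeR), and the shRBM10#1 libraries lay above shScr whereas the shRBM10#2 libraries overlapped with it. CDKN1C, which encodes p57 and lies on the minus strand of chromosome 11 between 2883213 and 2885773, had 21 to 31 expected counts per library. At this depth its SE was 0.35 on the log2 scale with either shRNA, and differences of the size seen for CCND1 or RB1 could not be detected. Its isoforms NM_000076, NM_001122630 and NM_001122631 divided these few counts, with NM_001122630 leading in 5 libraries and NM_001122631 in shRBM10#2 replicate 1.

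CDKN1A, which encodes p21, the remaining CIP/KIP inhibitor, was not a member and is given for contrast. It gave 34.6 and 36.3 CPM in shScr, 16.3 and 21.2 CPM under shRBM10#1, and 22.2 and 19.3 CPM under shRBM10#2, so that each KD library lay below both shScr libraries. It fell with both shRNAs, with a log2 FC of −0.92 (SE 0.112, FDR = 2.18e-04) and −0.77 (SE 0.111, FDR = 6.43e-04), and with the KD libraries as one group (log2 FC −0.84, SE 0.119, FDR = 0.0195; edgeR). It was the only gene of 25 in the list of other G1/S genes that passed with both shRNAs, a count for which the share of all genes is not given.

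The INK4 inhibitors lie next to each other on chromosome 9. CDKN2A gave 406 and 304 CPM in shScr, 425 and 436 CPM under shRBM10#1, and 321 and 343 CPM under shRBM10#2. The shRBM10#1 libraries lay above all others, but the shScr libraries differed from each other so far that the shRBM10#2 libraries fell between them. CDKN2A was lower with shRBM10#2 than with shRBM10#1, where it fell by 22.8% (log2 FC −0.37, SE 0.104, FDR = 0.0191 by edgeR). Relative to shScr, the log2 FC was 0.28 (SE 0.104, FDR = 0.0966) with shRBM10#1 and −0.096 (SE 0.104, FDR = 0.536) with shRBM10#2. Without shScr replicate 1 these became 0.50 (FDR = 0.00464) and 0.13 (FDR = 0.276), and without shScr replicate 2 they became 0.085 (FDR = 0.556) and −0.29 (FDR = 0.0248), so that single shScr libraries decided the calls with both shRNAs and the sign with shRBM10#2. The difference between the shRNAs had an FDR of 0.0517 without shRBM10#1 replicate 2, 0.149 without shRBM10#2 replicate 1 and 0.0907 without shRBM10#2 replicate 2 (edgeR), and of 0.0982 by DESeq2.

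The p16 and ARF isoforms made up nearly all of CDKN2A. The p16 isoform NM_000077 gave 277 and 223 TPM in shScr, 299.7 and 279 TPM under shRBM10#1, and 159.97 and 187 TPM under shRBM10#2. The ARF isoform NM_058195 gave 350.4 and 297 TPM in shScr, 364 and 380.1 TPM under shRBM10#1, and 355 and 355 TPM under shRBM10#2. The p16 level was thus lowest in both shRBM10#2 libraries, while the ARF level in these libraries lay within the range of the others. The ratio of p16 to ARF in TPM was 0.772 ± 0.0257 in shScr, 0.779 ± 0.0631 with shRBM10#1 and 0.488 ± 0.0539 with shRBM10#2 (SD, n = 2 in each). Of the expected counts of both isoforms, p16 took 46.9% and 45.6% in shScr, 47.9% and 45.1% with shRBM10#1, and 33.5% (95% Wilson interval 32.6 to 34.3) and 37.0% (36.2 to 37.8) with shRBM10#2, where the intervals cover counting error alone and not the division of shared reads.

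These isoform differences did not pass over all isoforms in the main edgeR fit. The log2 FC of NM_000077 was −0.49 (SE 0.166, unadjusted p = 0.0301, FDR = 0.179) with shRBM10#2 relative to shScr and −0.76 (SE 0.166, unadjusted p = 0.00508, FDR = 0.0836) relative to shRBM10#1. The log2 FC of NM_058195 was 0.18 (SE 0.13, FDR = 0.514) and −0.092 (SE 0.129, FDR = 0.775). With shRBM10#1 relative to shScr, p16 and ARF gave like values, 0.28 (SE 0.165, FDR = 0.519) and 0.27 (SE 0.13, FDR = 0.428). The call for p16 depended on the tool and the filter: DESeq2 gave an FDR of 0.0117 with shRBM10#2 relative to shScr and of 1.47e-05 relative to shRBM10#1, and edgeR on isoforms with at least 10 counts in each library gave 0.0985 and 0.0375. Its size relative to shScr depended on the shScr libraries. Without shScr replicate 1 the log2 FC of NM_000077 was 0.52 with shRBM10#1 and −0.24 with shRBM10#2, and without shScr replicate 2 it was 0.067 and −0.70. The test of isoform usage within the gene (edgeR's diffSpliceDGE) gave an FDR of 0.545 and 0.635 for CDKN2A, with an unadjusted p of 0.0628 and 0.0618. A further isoform, NM_058197, held 0.26% to 0.68% of the gene, and NM_001195132 held at most 0.04%.

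**Figure D4:**
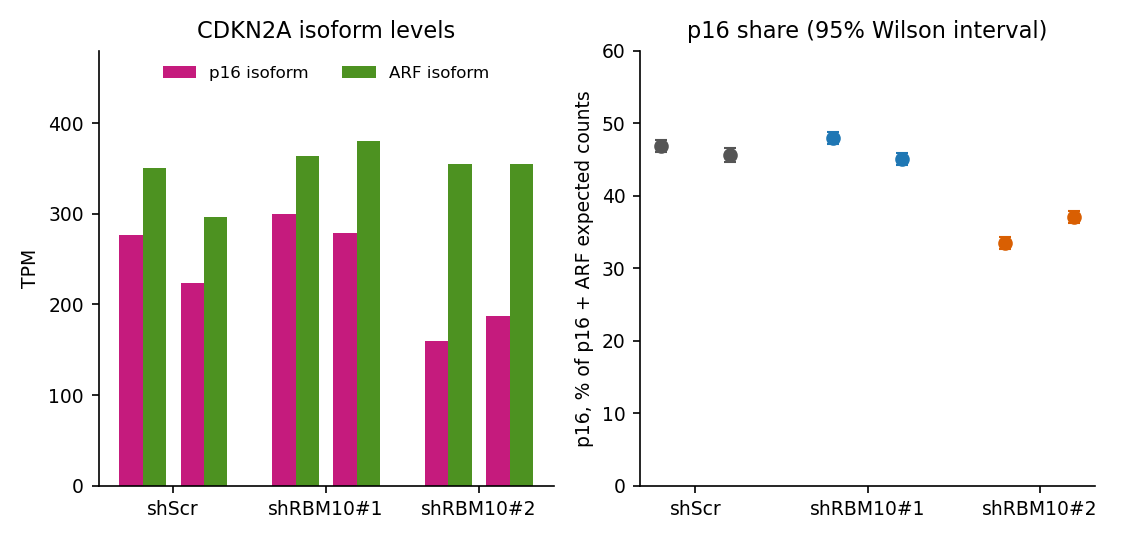
Left, TPM of the p16 (NM_000077) and ARF (NM_058195) isoforms of CDKN2A, with 1 pair of bars per library. Right, p16 as a percent of the expected counts of both isoforms, with 95% Wilson intervals for counting error. The p16 share is 33.5% and 37.0% in the shRBM10#2 libraries and 45.1% to 47.9% in the other 4.

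CDKN2B, which encodes p15 and lies on the minus strand of chromosome 9 between 22002903 and 22009363, gave 97.5 and 88.0 CPM in shScr, 95.3 and 88.7 CPM under shRBM10#1, and 80.7 and 79.96 CPM under shRBM10#2. Both shRBM10#2 libraries lay below the other 4. CDKN2B fell by 13.4% with shRBM10#2 relative to shScr (log2 FC −0.21, SE 0.0709, FDR = 0.0469 by edgeR), a value at the threshold. Without shScr replicate 1 the log2 FC was −0.13 (FDR = 0.272), and without shRBM10#2 replicate 1 or 2 the FDR was 0.220 and 0.263. An offset for effective length, which differed in shScr replicate 2, gave an FDR of 0.0558. Relative to shRBM10#1, the log2 FC was −0.20 (SE 0.0709, FDR = 0.0602), and with shRBM10#1 it was −0.013 (SE 0.0709, FDR = 0.932). The isoform NM_004936, quantified with a length of 3861 nt, held 93.9% to 97.5% of the gene. NM_078487, quantified with a length of 3984 nt, held the rest.

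CCND2, CDK4 and CDKN1B each had a single isoform in the files (NM_001759, NM_000075 and NM_004064). At the isoform level, 17 of the 22 member isoforms passed the filter on low counts. In edgeR, 0 of 17 passed with shRBM10#1 and 0 of 17 with shRBM10#2 relative to shScr, beside 0.0302% and 2.26% of all isoforms, with 2 and 5 at an unadjusted p below 0.05. Between the shRNAs, 1 of 17 passed, beside 2.25% of all isoforms. DESeq2 called more: NM_001760 of CCND3 with shRBM10#1, NM_053056 of CCND1, NM_000077 of CDKN2A and NM_000321 of RB1 with shRBM10#2, and all 4 of these between the shRNAs. Over all 26464 isoforms, DESeq2 also called more, with 2416, 4597 and 4251 in these comparisons. The edgeR shares are thus not the background for the DESeq2 calls. Isoform usage could be tested in 4 members (CCND3, CDK6, CDKN2A and CDKN2B), and 0 of 4 passed in each of the 3 comparisons with edgeR, with limma's diffSplice also at 0 and 0 at an unadjusted p below 0.05, beside 0.172%, 2.75% and 1.92% of all genes tested. The smallest FDR was 0.545 with shRBM10#2 relative to shScr.

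The members were set beside the other genes of the pathway. Of 25 other G1/S genes (E-type and A-type cyclins, CDK2, E2F factors, other inhibitors and their regulators), all tested, 0 rose and 1 fell with shRBM10#1, and 4 rose and 2 fell with shRBM10#2. The share of all genes tested that passed was 14% with shRBM10#1 and 25.9% with shRBM10#2. The median log2 FC of the 25 genes was 0.015 and 0.069. Of these, CCNE2, which encodes cyclin E2, and SKP2, the ubiquitin ligase component that targets p27, are named because CCNE2 had the highest log2 FC with shRBM10#2 and SKP2 was the gene besides CDKN1A that fell, a choice made after the values were seen. CCNE2 gave 16.6 and 20.4 CPM in shScr, 18.4 and 20.8 CPM under shRBM10#1, and 31.3 and 30.1 CPM under shRBM10#2, and it rose with shRBM10#2 (log2 FC 0.73, SE 0.102, FDR = 5.98e-04 by edgeR). SKP2 gave 51.7 and 54.4 CPM in shScr, 54.6 and 50.9 CPM under shRBM10#1, and 37.7 and 37.3 CPM under shRBM10#2, and it fell (log2 FC −0.50, SE 0.0709, FDR = 6.22e-04 by edgeR).

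Of 19 genes that RB1 and E2F are known to control, which serve DNA replication and nucleotide synthesis, 0 rose and 1 fell with shRBM10#1, and 7 rose and 2 fell with shRBM10#2. Their median log2 FC was 0.083 and 0.050. Of all genes, 12% rose and 13.9% fell with shRBM10#2, and 7.13% rose and 6.91% fell with shRBM10#1. Of 12 genes of D-type cyclin turnover, 11 were tested, and 0 rose or fell with shRBM10#1 whereas 1 rose and 2 fell with shRBM10#2, with a median log2 FC of 0.011 and −0.026. With edgeR, 1 of these 11 genes had an unadjusted p below 0.05 with shRBM10#1.

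For each member that passed with either shRNA relative to shScr, the gene of the other lists with the nearest profile was found by the root mean square difference of centered log2 CPM over 6 libraries, among 77 genes. For CCND1 it was DDB1, an adaptor of CUL4 ubiquitin ligases, at 0.037. For RB1 it was RRM2, a subunit of ribonucleotide reductase, at 0.043. For CDKN2B it was TK1, thymidine kinase, at 0.059, and for CCND3 it was RRM1, the other ribonucleotide reductase subunit, at 0.061. The root mean square of the members' own centered profiles was 0.151, 0.158, 0.108 and 0.122. Each distance is the smallest of 77 within chosen lists, and genes outside these lists were not searched. Shared regulation was not tested.

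The neighbors of CDKN2A and CDKN2B on 9p21 were also measured, because this region is often lost in lung adenocarcinoma. Of 7 genes listed, 4 passed the filter (MTAP, KLHL9, CDKN2B-AS1 and DMRTA1), and 0 of 4 passed the threshold with either shRNA relative to shScr by edgeR. The share of all genes tested was 14% with shRBM10#1 and 25.9% with shRBM10#2. MTAP, a methionine salvage enzyme, gave 28.1 to 34.7 CPM over the 6 libraries, and KLHL9, a ubiquitin ligase adaptor, gave 28.7 to 32.3 CPM. The antisense transcript CDKN2B-AS1, which shares 341 nt of exon with CDKN2A on the opposite strand, gave 1.85 to 2.38 CPM, far below CDKN2A. DMRTA1, a transcription factor gene, gave 0.896 to 1.67 CPM and was higher with shRBM10#2 than with shRBM10#1 (log2 FC 0.80, SE 0.275, FDR = 0.0491 by edgeR). It had an unadjusted p of 0.0377 with shRBM10#2 relative to shScr, the only one of these 4 genes below 0.05.

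Of 14 genes that overlap or adjoin other members, 10 were tested. With shRBM10#1, FGF19 near CCND1 rose and APOLD1 near CDKN1B fell, and with shRBM10#2, GPR19 near CDKN1B rose and ORAOV1 fell. That is 2 of 10 with each shRNA, beside 14% of all genes tested with shRBM10#1 and 25.9% with shRBM10#2. FGF19, a growth factor gene, had 8 and 6 expected counts in shScr, 24 and 29 with shRBM10#1, and 21 and 17 with shRBM10#2 (log2 FC 1.84, SE 0.449, FDR = 0.0164 with shRBM10#1 and 1.22, SE 0.473, FDR = 0.0755 with shRBM10#2, by edgeR). The counts are low, and its neighbor CCND1 did not pass with shRBM10#1. APOLD1 had a log2 FC of −0.34 (SE 0.102, FDR = 0.0399) with shRBM10#1 and GPR19 of 0.53 (SE 0.169, FDR = 0.0348) with shRBM10#2 (edgeR), whereas CDKN1B did not pass with either shRNA. The other 6 (METTL1, MARCH9, KCNQ1OT1, TAF8, BYSL and TSPAN31) did not pass relative to shScr.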

How the data were processed

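RNA-Seq of 6 PC-9 libraries (2 each of shScr, shRBM10#1 and shRBM10#2, grouped by the labels) was used. The submitters' processing notes name STAR 2.4, RSEM 1.2.29, edgeR and the hg19 build. The authors deposited, per RefSeq isoform and library, RSEM's expected count, TPM, FPKM (not used) and the percent of the gene's expression, with lengths. RSEM splits reads shared by isoforms, so close isoforms are less certain than gene totals. Strand and read length are not given in the sources used here.

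Expected counts were summed per gene, rounded, scaled by TMM, filtered with filterByExpr and fitted by edgeR 4.0.16's glmQLFit and glmQLFTest (R 4.3.3, no replicate block, all 6 libraries in each fit, FDR threshold 0.05, two-sided, fold changes with a prior count of 0.125). DESeq2 1.42.0 and limma 3.58.1 served alternatives. All 4 KD libraries were also fitted as one group. Isoform usage was tested with diffSpliceDGE and the Simes p-value. Tests were checked on simulated counts with 200 features changed by a log2 FC of 2. That is far larger than the changes called among the members, so the check does not cover changes of their size. SE is the log2 FC divided by the square root of F. Python 3.11.15 was used for tables and matplotlib 3.10.9 for figures. Expected counts totaled 31953729 to 37557507 per library. Replicates varied beyond sampling noise (chi-square per degree of freedom 3.24 to 12.5).

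Coordinates are those of GENCODE 29 and GRCh38, matched by name and not converted from hg19. Every member and member isoform with a count was named. Of the other lists, genes called in the same direction with both shRNAs were named, as were measured genes next to members and the nearest profiles. CCNE2 and SKP2 were added later. The members and lists were chosen with earlier results of these data known. Alternatives covered the test, scaling, filter, length offset, block and each library left out. Isoform tests between the shRNAs were added after the data were seen.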

Additional observations from a re-analysis of the deposited data

Results flagged for a closer look

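Among the members, 3 gene totals differed between shRBM10#2 and shRBM10#1 by the edgeR quasi-likelihood test of that difference, with Benjamini-Hochberg adjustment over 14217 genes. CCND1 had a log2 FC of −0.24 (FDR = 0.0326), RB1 of 0.36 (FDR = 0.00263) and CDKN2A of −0.37 (FDR = 0.0191) for shRBM10#2 relative to shRBM10#1. Of all genes, 25.5% passed in this comparison. RBM10 itself differed between these libraries by a log2 FC of −1.11 (FDR = 3.65e-06, edgeR). Which hairpin was used and how far RBM10 fell cannot be told apart here. With 2 libraries per condition, no library was tested for standing apart within its condition.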

How the results depend on the processing

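With shRBM10#1 relative to shScr, 1996 genes passed, and 267 passed with a log2 FC above 1 added, 1315 with an effective length offset and replicate block, and 985 to 2626 without each library in turn. Members called changed from 1 to 0 with the log2 FC criterion and to 2 with no filter, and RBM10 (−0.54) did not meet that criterion. With shRBM10#2, 3685 genes became 185 with the criterion and 953 to 4566 without each library, and members called went from 3 to 0 and to 0 to 3. Between the shRNAs, 3628 genes became 169 and 916 to 3736, and members called went from 3 to 0, to 1 with length offset and replicate block, and to 0 to 4. For the KD libraries as one group, 230 genes became 56 with the criterion, 718 by DESeq2, 52 with the replicate block, 47 with length offset and block, 2610 with the mean of the hairpin coefficients (members 0 to 1), and 0 to 413 without each library. Where a library is left out, the lone library of its condition is assumed to vary like the others.

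Isoforms called with shRBM10#1 were 8, and 2416 by DESeq2, 39 with no filter, 380 when each library needed 10 counts or more, 0 under the replicate block and 0 to 1 without each library. With shRBM10#2 the 597 became 130 with the criterion, 4597 by DESeq2, 1647 with at least 10 counts, 0 with the block and 0 to 151 without each library. Between the shRNAs the 595 became 95, 4251, 1403, 0 and 0 to 2 in the same order. Member isoforms called were 0, 0 and 1, and 1, 3 and 4 by DESeq2, 1 with shRBM10#2 and 2 between the shRNAs with at least 10 counts. The 1 between the shRNAs became 0 with the criterion, with no filter, with the block and without each library. Genes with changed isoform usage were 11, 176 and 123. They were 42, 571 and 339 by limma, 4, 83 and 48 with the block, and 5 to 39, 34 to 151 and 27 to 114 without each library. With at least 10 counts they were 7 with shRBM10#1 and 81 between the shRNAs, and 31 with shRBM10#1 for isoforms with at least 5% of their gene. The cause of these differences was not tested.

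Signs changed for some log2 FC without each library in turn. With shRBM10#1 these were CCND1 (−0.17 to 0.017), CDK6 (−0.15 to 0.047), CDKN1C (−0.27 to 0.27) and CDKN2B (−0.084 to 0.064). With shRBM10#2 they were CDK6 (−0.14 to 0.050), CDKN1B (−0.051 to 0.12), CDKN1C (−0.40 to 0.14), CDKN2A (−0.29 to 0.13) and NM_058195 (−0.0070 to 0.38). Between the shRNAs they were CDK4 (−0.060 to 0.00034), CDK6 (−0.090 to 0.10), CDKN1C (−0.26 to 0.0050) and CDKN1A (−0.031 to 0.34). Over 38 single results and 536 alternatives, 473 kept direction and call, 34 lost the call, 11 gained it and 18 changed sign. Most of the 38 were not called in the main fit and had no call to lose, so the 473 do not measure how stable the member calls were. Each called gene total of a member kept an FDR below 0.05 in 8 to 13 of 14 refits. The fewest were for CDKN2B with shRBM10#2 and for CCND1 between the shRNAs. The replicate numbers did not pair the libraries: deviations of same-numbered libraries correlated at −0.00383, −0.0193 and −0.0136 over 14217 genes. With the replicate block, the FDR of CCND1 between the shRNAs was 0.0546 and that of CDKN2B with shRBM10#2 was 0.0570 (edgeR).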
